A study of Mus musculus with 2 samples.

Results

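The genes described here are 8 neighbours on the mouse X chromosome, in the order F9, Mcf2, Sox3, Ldoc1, Fmr1, Fmr1nb, Aff2 and Ids, out of 19087 genes with a symbol on the array. They were chosen by name, as the rows whose platform symbol is one of the 8, and with the values of this same comparison already known, because Fmr1nb and Mcf2 lay far below 0. All their ratios are therefore given as descriptions, without a test. The 8 genes were read by 15 of the 43790 spots. The question was whether neighbouring genes on the chromosome move together on each array.

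RNA came from mouse embryonic stem cells, which are grown from the early embryo and kept undifferentiated here by LIF on gelatin without feeder cells, and used before passage 30. The transformants carried the vector CAG-Tcl1ireszeopA, put into disruptant clone 4 to express Tcl1, and the disruptants had parts of exons 2 and 3 of both Tcl1 copies replaced by a PGK-puro cassette, a change that the transformants share by origin. Array 1 compared transformant clone 1 (Cy5) with disruptant clone 4 (Cy3). Array 2 compared transformant clone 4 (Cy3) with disruptant clone 6 (Cy5), and this disruptant also carried a CAG-EGFP vector, which is not stated for the disruptant of array 1. Each line is 1 clone, so a difference between clones and a difference made by Tcl1 cannot be told apart within an array.

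Every value below is a log2 ratio of transformant over disruptant, so a negative value means less signal in the transformant. An array ratio gives no level of a gene, so neither the embryonic stem cell markers nor those of other cells could be checked for presence, and fewer cells of a type and less RNA per cell cannot be told apart. The deposited numbers were read as log10 of Cy5 over Cy3. That scale and that direction are the convention of the scanner's software and are not stated, and with the opposite direction every sign would turn. How the values were centred is also unknown. Their median was 0 on array 1 and 0 on array 2, and the SD over 30110 entries (genes and unnamed probes) was 0.464 and 0.498.

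As background, the stretch from F9 to Ids holds genes of unlike function. F9 encodes a clotting factor of the liver, Mcf2 (also called Dbl) a guanine nucleotide exchange factor, and Sox3 a transcription factor of early neural cells. Fmr1 encodes an RNA-binding protein that restrains translation, and silencing of the human gene causes fragile X syndrome. Fmr1nb is its neighbour and, in human, is known as a cancer-testis antigen. Ldoc1 derives from a retrotransposon gag gene and acts in the mouse placenta, Aff2 belongs to a family of transcription elongation factors, and Ids encodes a lysosomal sulfatase that degrades heparan and dermatan sulfate.

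The stretches before the annotated starts of Fmr1nb and Mcf2, the members at least 2-fold lower on both arrays, are printed here. Beside them stands that of Fmr1, the gene next to Fmr1nb, which was not 2-fold lower on both. They are the 250 bases before a start, from RefSeq on build GRCm38.p6, written 5′ to 3′, with each CpG in capitals. The table holds such a window for 7 of the 8 members, 9 windows in all, and none for Sox3.
Fmr1nb (chrX:68761589-68761838, plus strand): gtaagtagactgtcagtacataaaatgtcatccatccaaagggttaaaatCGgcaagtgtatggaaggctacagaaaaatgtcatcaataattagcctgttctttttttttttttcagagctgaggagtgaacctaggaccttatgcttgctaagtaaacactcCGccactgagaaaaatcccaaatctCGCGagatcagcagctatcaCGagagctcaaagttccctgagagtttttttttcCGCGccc
Mcf2, first start (chrX:60179090-60179339, minus strand): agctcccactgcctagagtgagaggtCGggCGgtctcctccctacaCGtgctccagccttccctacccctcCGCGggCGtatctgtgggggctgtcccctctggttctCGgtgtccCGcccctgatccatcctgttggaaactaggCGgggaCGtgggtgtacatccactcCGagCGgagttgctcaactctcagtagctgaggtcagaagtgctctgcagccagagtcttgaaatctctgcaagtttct
Mcf2, second start (chrX:60147842-60148091, minus strand): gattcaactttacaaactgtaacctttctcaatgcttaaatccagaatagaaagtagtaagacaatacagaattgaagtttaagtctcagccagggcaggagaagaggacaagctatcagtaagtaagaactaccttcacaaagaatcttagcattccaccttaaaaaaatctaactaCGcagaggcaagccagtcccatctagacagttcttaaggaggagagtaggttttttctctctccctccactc
Fmr1, second start (chrX:68678291-68678540, plus strand): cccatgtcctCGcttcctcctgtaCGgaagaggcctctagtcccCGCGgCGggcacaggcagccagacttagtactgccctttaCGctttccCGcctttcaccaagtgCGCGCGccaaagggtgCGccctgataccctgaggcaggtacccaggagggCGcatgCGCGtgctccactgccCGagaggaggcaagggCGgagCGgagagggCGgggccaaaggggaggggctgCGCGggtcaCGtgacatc
The Fmr1nb window held 7 CpG, the Mcf2 windows 12 and 1, and this Fmr1 window 21, against a median of 6 over all 32851 windows (quartiles 2 and 16). The palindrome TCGCGA was found 1 time in the window of Fmr1nb, with its first base 62 bases before the start, and in 2.08% of all windows. It was absent from the other 8 member windows. The GC box GGGCGG, on either strand, was found 2 times in the first Mcf2 window, 2 times in each Fmr1 window and 3 times in the Aff2 window. It was in 32.7% of all windows, while the Fmr1nb window held 0. The E box CACGTG was found 1 time in the first Mcf2 window and 1 time in each Fmr1 window, and in 6.02% of all windows. TATAAA was in 0 member windows and in 12.4% of all windows. No other motif was searched, and none of these motifs contains another. A letter match is a description of the window and not a binding site. The 532 measured genes with TCGCGA in a window had medians of 0.08 on array 1 and −0.14 on array 2, beside 0.0053 and 0 over all named genes. Of these 532 genes 1 was at least 2-fold lower on both arrays, beside 50 of all 19087 named genes and 0.193% of all entries. That 1 gene was Fmr1nb, which was chosen for its low ratios, so the count says nothing about the motif.

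Fmr1nb was lower in the transformant on both arrays. Its 1 probe gave −2.72 on array 1 and −3.82 on array 2, which is 6.58-fold less signal in transformant clone 1 than in disruptant clone 4 and 14.1-fold less in transformant clone 4 than in disruptant clone 6. The mean was −3.27 ± 0.78 (SD, n = 2 arrays), or 9.64-fold. Both clone pairs were low, more so on array 2. Array 2 leaned to low ratios in general, with 1499 entries at least 2-fold lower and 242 higher, against 724 and 599 on array 1. Among the 30110 entries Fmr1nb stood 25th from the lowest on array 1 and 4th on array 2.

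Mcf2, the exchange factor gene, was also below 0 on both arrays but by unequal amounts. Its 1 probe gave −1.19 on array 1 and −3.85 on array 2, which is 2.28-fold and 14.5-fold less signal in the transformant. The mean was −2.52 ± 1.89 (SD, n = 2 arrays). On array 1 it was 464th from the lowest and on array 2 it was 3rd, directly next to Fmr1nb. The arrays differed by 2.67 for Mcf2 and by 1.10 for Fmr1nb, so on array 2 both genes had nearly the same ratio and on array 1 they did not.

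Sox3 lay above 0 on both arrays. Its 1 probe gave 1.26 on array 1 and 0.44 on array 2, which is 2.39-fold and 1.35-fold more signal in the transformant, with a mean of 0.85 ± 0.58 (SD, n = 2 arrays). It was the only member above 0 on both arrays, and the next measured gene after Mcf2. Of the related SoxB1 genes, Sox2, which maintains pluripotency, had −0.58 and −0.51, and Sox1, an early neural gene, had −0.16 and 0.18. These relatives therefore did not share the sign of Sox3 on both arrays.

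**Figure D1:**
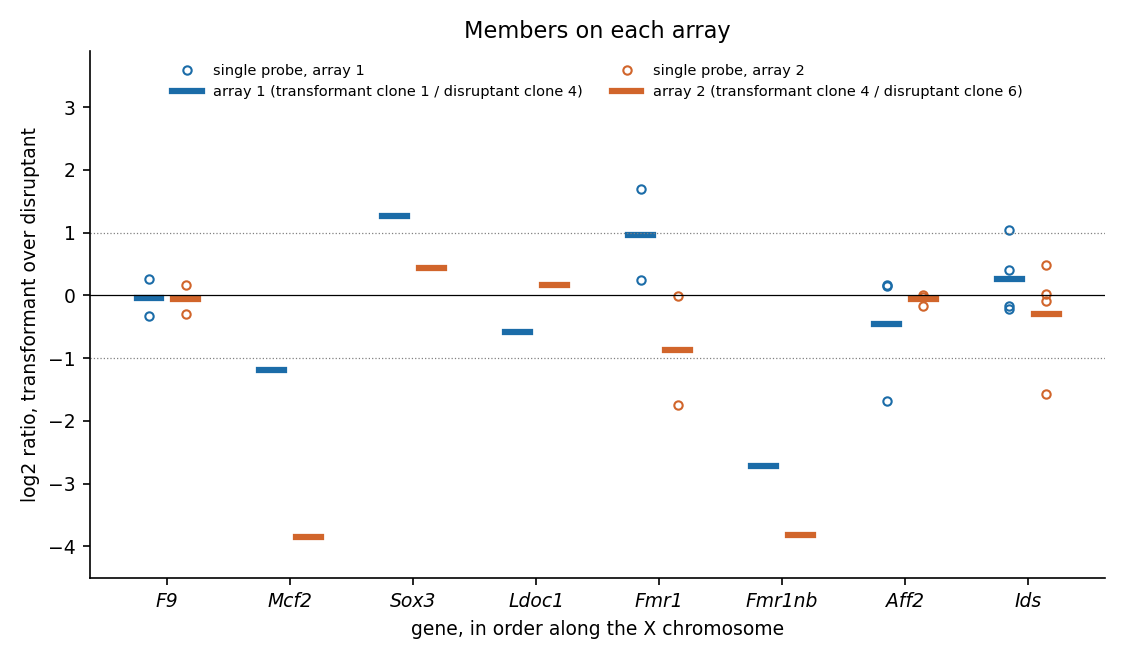
Log2 ratio of transformant over disruptant for the 8 members in chromosome order, with bars for the gene value on array 1 (left of each pair) and array 2 (right), open circles for single probes where a gene has several, and dotted lines at a 2-fold difference. Fmr1nb (−2.72 and −3.82) and Mcf2 (−1.19 and −3.85) lie below the lower line on both arrays, and the probes of Fmr1 and Ids on both arrays, and of Aff2 on array 1, spread widely.

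Fmr1, the direct neighbour of Fmr1nb, took opposite signs on the arrays, with 0.97 and −0.87 and a mean of 0.05 ± 1.30 (SD, n = 2 arrays). Its probes disagreed in size. One gave 1.69 on array 1 and −1.74 on array 2, and the other gave 0.24 and −0.0061. In the deposited direction the first probe read 0.510 and 0.524 in log10, so the Cy5 channel was the brighter on both arrays although it held the transformant on array 1 and the disruptant on array 2.

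In 2 of the 4 probes of Ids the Cy5 channel was also the brighter on both arrays, with 1.05 on array 1 and −1.57 on array 2 for one, and smaller values of 0.41 and −0.10 for the other. In the remaining 2 probes Cy3 was the brighter on both, with −0.22 and 0.48, and −0.17 and 0.02. As a gene Ids had 0.27 and −0.29, with a mean of −0.01 ± 0.40 (SD, n = 2 arrays). None of its 4 probes had the same sign on both arrays.

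Aff2 was read by 3 probes. The one annotated to a cDNA record other than the RefSeq transcript gave −1.67 on array 1 and −0.02 on array 2. The probes of the RefSeq transcript gave 0.15 and −0.17, and 0.17 and an exact 0. The gene value of −0.45 and −0.06, with a mean of −0.26 ± 0.28 (SD, n = 2 arrays), rested on the first probe, since with the median over probes the mean was 0.06.

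F9 stayed near 0 as a gene, and Ldoc1 was lower on array 1 alone. The 2 probes of F9 gave −0.33 and 0.17, and 0.26 and −0.29, which averaged to −0.04 and −0.06. Ldoc1 had −0.58 on array 1, which is 1.49-fold less signal and beyond 1 SD of the entries there, and 0.17 on array 2, with a mean of −0.20 ± 0.53 (SD, n = 2 arrays). Over the genes with several probes, the range among the probes of a gene had a median of 0.41 on array 1 and 0.46 on array 2. The range was 1.45 and 1.73 for Fmr1, 1.84 and 0.17 for Aff2, and 1.27 and 2.05 for Ids, so the gene values of Fmr1 and Ids on both arrays, and of Aff2 on array 1, depend on which probe is read.

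Of the 15 member probes, 4 had the same sign on both arrays, 10 had opposite signs and 1 was an exact 0 on 1 array. The 4 were those of Fmr1nb, Mcf2 and Sox3 and the divergent probe of Aff2. Among all probes with a symbol and no exact 0, 41.0% had the same sign on both arrays, against 28.6% of the 14 such member probes. Over all 30110 entries the arrays ran against each other, with a Spearman correlation of −0.21 after the turn. Past 2-fold, 200 entries had opposite directions on the arrays, while 58 were lower and 5 higher on both. Opposite signs after the turn mean that 1 dye was the brighter on both arrays, and the part of the dye in the values of Fmr1 and Ids was not tested.

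By gene, both arrays read below 0 for 4 of the 8 members and above 0 for 1, and 3 had opposite signs. The 4 include Mcf2 and Fmr1nb, which were chosen for their low values. With the median over probes or the probe of largest size the count below 0 was 3. The same shares over all entries were 17.0% below, 21.0% above and 53.4% opposite, and on the X chromosome (676 measured genes) they were 24.1%, 16.4% and 54.6%. The members' median was −0.24 on array 1 and −0.18 on array 2, and for the X chromosome it was 0.01 and −0.07. Without Mcf2 and Fmr1nb the remaining 6 members had medians of 0.12 and −0.06, and 2 of these 6 lay below 0 on both arrays. At least a 2-fold lower ratio on both arrays was found for 2 of 8 members, where 0.193% of all entries and 0.888% of X-linked genes showed it, and these were the values for which the genes were chosen. At least a 2-fold higher ratio on both arrays was found for 0 of 8 members and for 0.0166% of all entries.

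**Figure D2:**
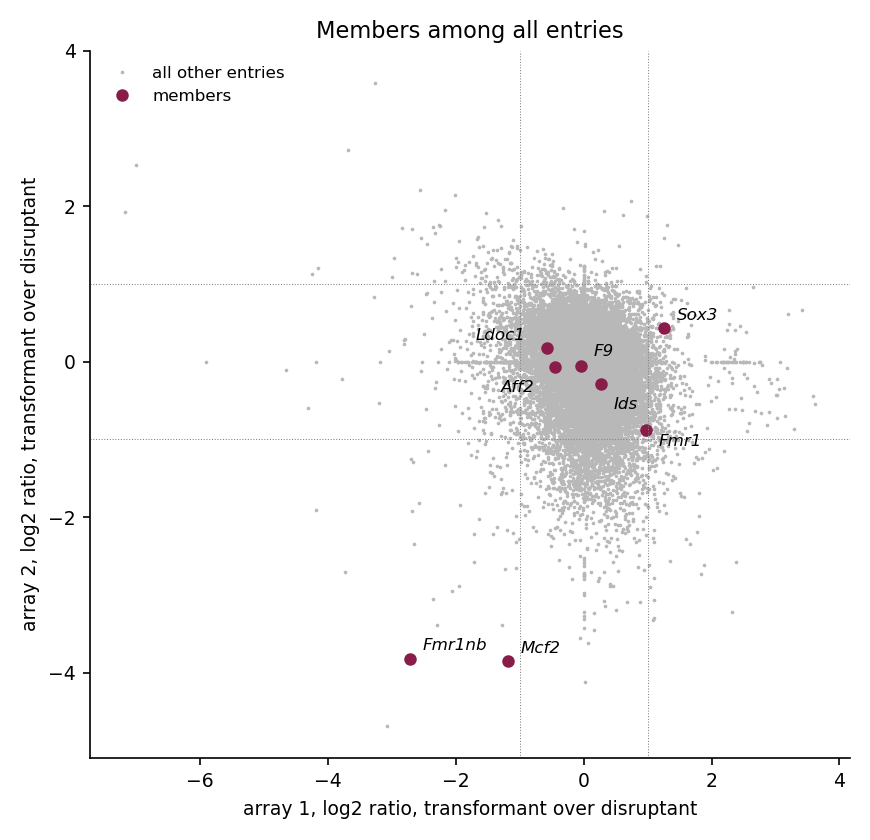
Log2 ratio of transformant over disruptant on array 1 (horizontal) against array 2 (vertical) for all 30110 entries in grey and the 8 members in colour, with dotted lines at a 2-fold difference. Fmr1nb and Mcf2 lie apart in the lower left, Sox3 lies to the upper right, and the other 5 members lie within or at the edge of the main cloud.

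In the test over all entries (limma, mean of the arrays against 0, Benjamini-Hochberg), 0 of 30110 entries passed an adjusted p of 0.05, which is 0% of those tested, and so no member did. Without adjustment, 947 of the 30110 entries had a limma p under 0.05. That is a smaller share than the 0.05 that this threshold passes where nothing changes. A robust variance model and a test against a 1.2-fold change also called 0, with 761 and 415 entries at that unadjusted threshold. Both transformants came from 1 disruptant clone, so the arrays may not be fully independent.

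Besides the members, 10 measured genes lie between F9 and Ids in the gene order, out of 115 genes annotated from F9 to Ids. None of these 10 was 2-fold lower on both arrays (0), and their medians were −0.05 on array 1 and −0.01 on array 2. Among them, 3 lay below 0 on each array, 1 lay above 0 on each, 5 had opposite signs and 1, Slitrk4, a neuronal membrane protein gene, was listed at 0 on both. The lowest by mean was 4933402E13Rik with −0.32 and −0.77, and the highest was 4933436I01Rik with 0.21 and 0.53.

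The measured genes between Sox3 and Fmr1 in chromosome order were mixed in sign. Cdr1, next after Sox3, had −0.73 and 0.45, and the X-linked Ctag2 had −0.48 and 0.51. The lncRNA gene 4931400O07Rik had −0.04 and −0.08, 3830417A13Rik had −0.05 and −0.57, and Slitrk2, a relative of Slitrk4, had −0.07 and 0.18. Transcripts from the opposite strand of Cdr1 are known, and which strand its probe reads was not examined. Between Aff2 and Ids, the lncRNA gene 1700111N16Rik had 0.22 and −0.17 and 1700020N15Rik had 0.03 and −0.03. On array 2 the lowest of these other genes, 4933402E13Rik with −0.77, lay far above Mcf2 and Fmr1nb, while on array 1 Cdr1 lay above Mcf2 (−1.19) by less than 1 SD over all entries.

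With Mcf2 and Fmr1nb set aside, the 16 other measured genes from F9 to Ids ranged from −0.73 (Cdr1) to 1.26 (Sox3) on array 1 and from −0.87 (Fmr1) to 0.53 (4933436I01Rik) on array 2. The 10 measured genes on each side of the stretch were also close to 0, with medians of 0.18 and −0.01 before F9 and −0.09 and 0.0030 after Ids. Of these 20 flanking genes 0 were 2-fold lower on both arrays, although Gm364 had −1.56 on array 1 with 0.24 on array 2, and Htatsf1 had 0.67 on array 1 with −1.15 on array 2. The nearest flanking genes, Fgf13 before F9 and Eola1 after Ids, had 0.16 and 0.06, and −0.45 and −0.56.

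**Figure D3:**
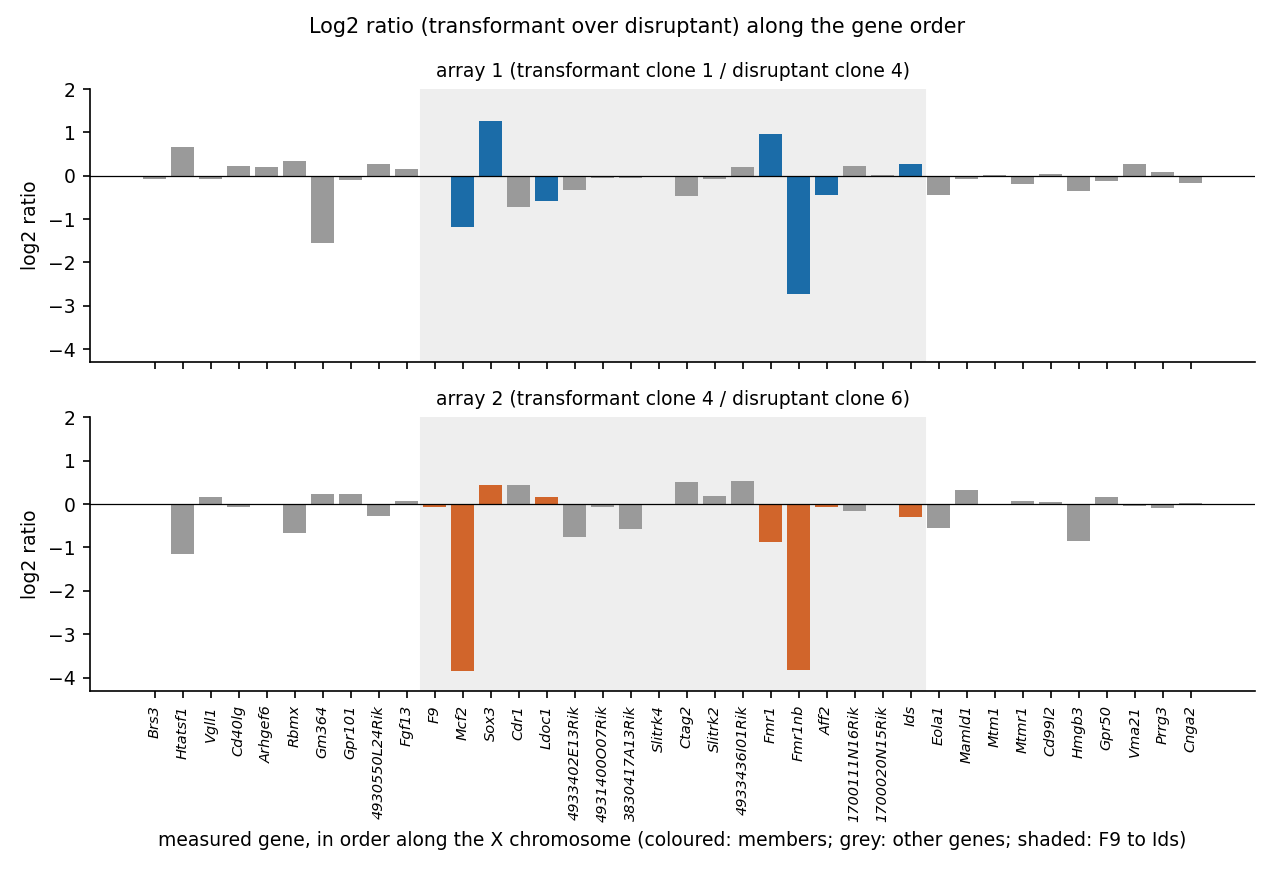
Log2 ratio of transformant over disruptant along the measured genes of the X chromosome from 10 genes before F9 to 10 genes after Ids, for array 1 (upper) and array 2 (lower), with members coloured, other genes grey and the stretch from F9 to Ids shaded. The low ratios of Mcf2 and Fmr1nb are single bars on both arrays, and the genes on either side of each lie between −0.87 and 1.26. On array 1 the flanking gene Gm364 (−1.56) lies lower than Mcf2 (−1.19).

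Among the measured genes the low ratios stood at single genes and not over a run. Of the 115 genes annotated from F9 to Ids 18 were measured, so a direct neighbour here is the next measured gene. A ratio gives no level either, so whether these neighbours had signal that could fall is unknown here. Mcf2 and Fmr1nb have 11 measured genes between them. F9, directly before Mcf2, had a ratio higher by 1.15 on array 1 and 3.79 on array 2, and Sox3, directly after it, one higher by 2.44 and 4.29. Fmr1, directly before Fmr1nb, had a ratio higher by 3.68 on array 1 and 2.95 on array 2, and Aff2, after it, one higher by 2.26 and 3.76.

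For comparison, the absolute difference between adjacent measured genes had a median of 0.35 on array 1 and 0.44 on array 2 over the 675 pairs of the X chromosome. Over 18942 pairs of all chromosomes it was 0.31 and 0.35, and over the 17 pairs from F9 to Ids it was 0.41 and 0.51. Of the 675 X-linked pairs, 54 on array 1 and 2 on array 2 differed more than F9 and Mcf2, and 4 and 1 differed more than Mcf2 and Sox3. More than Fmr1 and Fmr1nb, 0 pairs differed on array 1 and 5 on array 2, and more than Fmr1nb and Aff2, 6 and 3. The Fmr1 value of 0.97 behind that 0 is the mean of probes at 1.69 and 0.24. Since Mcf2 and Fmr1nb were chosen for their low ratios, these steps are a description.

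Adjacent X-linked genes showed almost no likeness in general. Over these pairs the Spearman correlation was 0.03 on array 1 and 0.02 on array 2, and 49.5% and 47.1% of the pairs had the same sign. Over all chromosomes the correlation was 0.06 and 0.15, with the same sign in 49.8% and 52.7%. From F9 to Ids the correlation was −0.15 and 0.15 over the 17 pairs, with the same sign in 58.8% and 70.6%. The pairs share arrays and overlap in their genes, so these values describe the arrays alone.

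**Figure D4:**
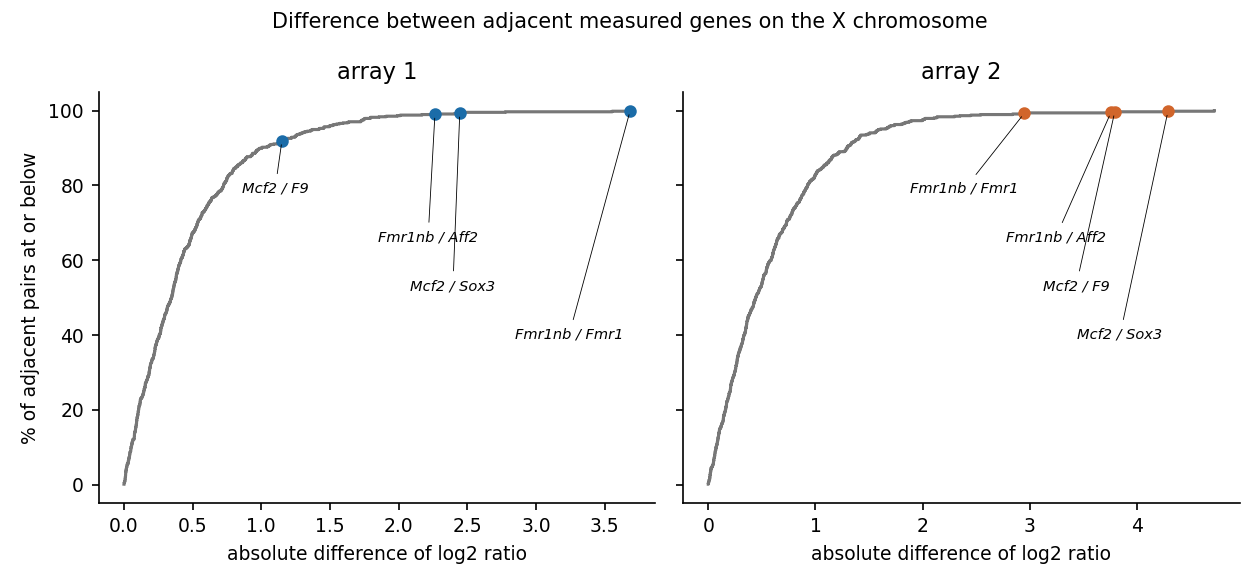
Cumulative share of adjacent measured gene pairs on the X chromosome (vertical, percent) by the absolute difference of their log2 ratios (horizontal), for array 1 (left) and array 2 (right), with the 4 pairs formed by Mcf2 or Fmr1nb and a direct neighbour marked. All these pairs lie in the upper tail, with differences of 1.15 to 3.68 on array 1 and 2.95 to 4.29 on array 2.

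On the whole X chromosome, 6 of 676 measured genes were at least 2-fold lower on both arrays and 0 were higher. Besides Mcf2 and Fmr1nb these were the homeobox genes Rhox5 (−3.07 and −4.68), Rhox6 (−1.22 and −1.69) and Rhox9 (−1.44 and −1.44), and Stard8 (−1.41 and −1.46), which encodes a lipid-binding protein. The 3 Rhox genes follow each other directly in the order of measured genes, whereas neither Mcf2 nor Fmr1nb has a direct neighbour among the 6. These Rhox genes are members of a gene family, and how much their probes share signal was not examined.

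The genes whose pair of array values lay nearest to that of Fmr1nb, by Euclidean distance over the 2 arrays, were Rhox5 (distance 0.934), Rpl39l (1.09) and Inpp5d (1.21). Rpl39l, a gene for a variant ribosomal protein of the testis, had −2.06 and −2.96, and Inpp5d, which encodes an inositol lipid phosphatase, had −1.94 and −2.89. Nearest to Mcf2 were Pmaip1 (−1.29 and −3.39, distance 0.476), which encodes the proapoptotic protein Noxa, Traf3ip1 (−0.05 and −3.55, distance 1.17) and Ubxn2a (−1.06 and −2.65, distance 1.21). Only 1 gene lay within a distance of 1 of Fmr1nb and 1 of Mcf2, against 1835 of Sox3, so likeness to Sox3 is common. The nearest to Sox3 were Fam131a (1.21 and 0.46), Zfp768 (1.15 and 0.44) and the growth factor receptor gene Pdgfrb (1.38 and 0.46).

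Lists of genes that work with the members, or resemble them, gave 0 genes past the limma test in either direction, and the figures that follow are counts of signs. Over all entries 17.0% were below 0 on both arrays, 21.0% above and 53.4% of opposite sign. Of 25 measured X-linked germ cell and cancer-testis genes, the class to which human FMR1NB belongs, 11 lay below 0 on both arrays and 5 above it, beside 24.1% and 16.4% of X-linked genes. Their medians were −0.19 and −0.0082. At least 2-fold lower on both arrays were 3 of the 25, all of them Rhox genes, beside 0.888% of X-linked genes and 0.193% of all entries. The highest was Tex13a, with 0.59 and 0.21. The Rhox genes had been known to be low when the list was made.

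Of 7 measured relatives and partners of the Fmr1 protein, all 7 had opposite signs on the arrays, as had 53.4% of all entries. The medians were 0.25 on array 1 and −0.70 on array 2, and the values ran from −1.07 to 0.56 and from −1.23 to 0.42. Nufip2, a binding partner, had 0.25 and −1.19, Caprin1, a stress granule protein gene, 0.36 and −1.23, and Cyfip2, of the actin-regulating WAVE complex, 0.48 and −0.10. These 3 were above 0 on array 1 and below it on array 2, as Fmr1 was, while Fxr2, named for its value, turned the other way with −1.07 and 0.42.

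Of 11 measured genes of the AFF family and the super elongation complex, 1 was below and 2 above 0 on both arrays (medians 0.11 and −0.08). The cyclin genes Ccnt2 and Ccnt1, partners of the elongation kinase, had 0.07 and −1.29, and 0.40 and −0.84, and Ell had 0.06 and 0.25. Of 4 other SoxB genes, 2 lay below 0 on both arrays and 0 above it (medians −0.18 and 0.02), and the lowest after Sox2 was Sox21, with −0.21 and 0.04.

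Of 9 measured vitamin K dependent clotting factors and their enzymes, 1 was below and 2 above 0 on both arrays (medians 0.23 and 0.04). The prothrombin gene F2 had −1.23 and −0.96, Vkorc1l1, of the vitamin K cycle, had 0.28 and −0.69, and the carboxylase gene Ggcx had 0.66 and 0.40. Of the 12 measured enzymes of sulfate and glycosaminoglycan breakdown, the group of Ids, 3 were below and 6 above 0 on both arrays (medians 0.10 and 0.09). Glb1, the lysosomal beta-galactosidase gene, had −1.35 and −0.14, the sulfatase gene Arsa −0.14 and −0.30, and the glucuronidase gene Gusb 0.57 and 0.31. Of 4 measured relatives of Ldoc1, 0 were below and 2 above 0 on both arrays (medians 0.26 and 0.16). The imprinted Peg10, needed in the placenta, had 1.32 and −1.45, Rtl3 had 0.12 and an exact 0, and Rtl6 had 0.32 and 0.71.

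Tcl1, the targeted gene, gave −0.37 and 0.17 with 1 probe, and where that probe lies relative to the replaced exons is unknown here, so it is no check of the labels or of the direction. Of 8 embryonic stem cell markers 6 were below and 2 above 0 on both arrays (range −2.55 to 0.10 on array 1 and −2.22 to 0.50 on array 2). Of the 6 below 0, 2 were at least 2-fold lower on both. Over all entries 17.0% were below 0 on both arrays, 21.0% above and 0.193% at least 2-fold lower. Of 7 fibroblast markers 2 were below and 2 above 0 on both arrays, and of 7 trophoblast markers 3 below and 1 above, beside 17.0% and 21.0% of all entries. Of 6 neural markers all 6 had opposite signs, and of 6 primitive endoderm markers 5 had opposite signs and 1 was below 0 on both, beside 53.4% opposite over all entries. The part of these markers in the ratios of Mcf2, Fmr1nb and Sox3 was not tested.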

How the data were processed

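The ratios of 2 two-colour arrays were analysed, each with RNA of a transformant and a disruptant clone. Agilent Feature Extraction was used, per the submitters' processing notes, whose listed tools name no version and no correction for background or dye. The deposited table holds 1 value per spot, taken here as a log10 ratio by the convention of that software.

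To obtain log2 ratios of transformant over disruptant the deposited numbers were multiplied by 3.32, with the sign of array 2 turned. Of 43790 spots, 32042 had 1 symbol in GEO's platform annotation, 47 had several and 11701 were not listed. Unlisted spots below −1 in log10 on both arrays (725, against 0 listed spots) were left out as controls. Probes of a symbol were averaged, giving 30110 entries. Gene order came from a RefSeq table of GRCm38.p6, which matched 18965 of 19087 genes by gene number.

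In R 4.3.3, limma 3.58.1 (lmFit, then eBayes) tested each mean against 0, after a test on simulated data. The simulated noise was symmetric and independent between the arrays, which the real values were not, so that test does not cover these features. A p measures only the spread between these 2 clone pairs, and their number limits the precision. Depth has no meaning here, and intensities were not analysed. The members, lists and motifs were chosen with earlier results of these data known. Named genes are the members, all measured genes from F9 to Ids, the 3 genes nearest in pattern to Fmr1nb, Mcf2 and Sox3, and in each list the 2 lowest and the highest by mean. 1 of the lists is not reported here. F2, Tex13a and others follow this rule, while the flanking and further X-linked genes were named after their values were seen. Alternatives were another scale, direction, centring, probe summary, treatment of zeros, control and unlisted spots, fold limit, variance model and each array left out.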

Additional observations from a re-analysis of the deposited data

How the results depend on the processing

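Fmr1nb and Mcf2 stayed at least 2-fold lower on both arrays under other centring, either other way of summarising probes, exact zeros left out and listed genes alone, and at a 1.5-fold limit. At a 3-fold limit 1 of the 2, Fmr1nb, remained. With array 2 not turned, which goes against the dye labels, 0 remained, the means became 0.55 for Fmr1nb and 1.33 for Mcf2, 1 member was below 0 on both arrays and the members' median was 0.35. Read as log2, 0 members passed 2-fold and the median was −0.038. The median, −0.13 in the reported setting, was −0.23 with the probe of largest size and −0.0041 with the median over probes, and −0.24 to −0.18 with 1 array left out. On a single array both genes remained past 2-fold. The median of the other genes of the stretch was −0.046 to −0.014 with 1 array left out, against −0.00081.

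Entries lower by 2-fold on both arrays numbered 58, and 286 at 1.5-fold, 15 at 3-fold, 99 with array 2 not turned, 95 with the largest probe and 0 read as log2. Array 1 alone gave 724 and array 2 alone gave 1499. Entries higher numbered 5, and 109, 0, 101, 8 and 0 under the same alternatives, and 3 with listed genes alone. They numbered 599 on array 1 alone and 242 on array 2 alone. Under each alternative run limma called 0 entries, and with 1 array left it has no residual degrees of freedom. No paired analysis was possible because each array is already a pair of clones and the 2 arrays form 1 group. Reasons for these shifts other than the construction of each alternative were not tested.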
